A study of Mus musculus with 10 samples.

Results

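Glycolysis splits glucose into pyruvate, and several of its steps can be run by alternative enzymes that are encoded by separate genes. The genes described here are 10 such enzymes: the hexokinases Hk1 and Hk2, the phosphofructokinases Pfkl, Pfkm and Pfkp, the aldolases Aldoa and Aldoc, the phosphoglycerate kinase Pgk1, and the lactate dehydrogenase subunits Ldha and Ldhb. They were chosen by name, and every array probe set that carried exactly 1 of these symbols was taken, which gave 22 of the 20380 probe sets with a single gene symbol. Of these 22, 21 passed the filter on low values, a log2 value above 4 on at least 2 of the 10 arrays. The one that did not was the second Aldoc probe set (1424714_at), which lay between 1.68 and 3.54 on all arrays.

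Hexokinase traps glucose in the cell as glucose 6-phosphate, phosphofructokinase makes the committed, regulated step, and aldolase cleaves the resulting sugar. Phosphoglycerate kinase then makes ATP, and lactate dehydrogenase interconverts pyruvate and lactate. Pluripotent stem cells and cells undergoing reprogramming are known for a high rate of glycolysis, and the isoforms named here are known to prevail in different adult tissues, among them liver for Pfkl, skeletal muscle for Pfkm and Aldoa, platelets for Pfkp, brain for Aldoc and heart for Ldhb.

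The study profiled mouse induced pluripotent stem cells (iPSC) on Affymetrix arrays, with 2 arrays in each of 5 groups. The first group was iPSC grown in 2i/serum, a medium with a pair of kinase inhibitors that holds cells in the ground state of pluripotency, and the second was iPSC co-cultured with MEFs (mouse embryonic fibroblasts). The third was secondary MEFs, that is fibroblasts carrying the reprogramming factors, after 32 days of expression of those factors (the Yamanaka factors), unsorted. The fourth and the fifth were the Sox2-positive and the Sox2-negative fraction of such day 32 cells, sorted by flow cytometry on RNA, so the level of Sox2 itself was fixed by the sort. All 5 groups carry the label iPSC as cell type, and the labels name no strain, sex, clone, factor vector or feeder removal. They do not say whether the arrays of a group came from separate cultures either, so each p-value measures only the spread between these arrays.

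The arrays fell into separate technical classes. The 6 arrays of iPSC on MEFs and of both sorted fractions had an 18S ribosomal control probe at 11.35 to 13.22 (log2), against 5.25 to 6.55 on the 4 arrays of 2i iPSC and unsorted day 32 cells. The array medians were 4.27 to 4.33 in the former and 5.28 to 5.36 in the latter, and the gap between 3' and 5' actin probes was 0.05 to 1.12 against 2.70 to 3.88. The class and the culture cannot be told apart in comparisons across it, so the sorted fractions, iPSC on MEFs, and the pair of 2i iPSC and day 32 cells carry the comparisons below. Where arrays of all groups are ranked below, the order across the classes only describes the deposited values, without telling class from culture. Among the 6 arrays of high 18S signal, the actin gap was 1.12 and 1.08 in iPSC on MEFs and 0.05 to 0.21 in the fractions. Their upper quartiles were 7.38 and 7.37 against 6.87 to 6.91. Array quality and group thus cannot be told apart between the fractions and iPSC on MEFs either. Against the labelled cell type, the Sox2-positive fraction held all 8 pluripotent cell markers above the floor of 4, with a mean of 10.18 and 10.58 over the list on its arrays. The Sox2-negative fraction had a mean of 5.75 and 6.14, with Zfp42 below 4 on both arrays and Pou5f1, the gene of Oct4 and itself a reprogramming factor, at 10.06 and 11.11.

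Between the day 32 fractions, glycolytic enzymes were higher in Sox2-positive cells or did not pass the test, and none was lower. By limma, with p-values adjusted by Benjamini-Hochberg over the 14012 probe sets that passed the filter, 10 of the 21 member probe sets were higher and 0 were lower at an adjusted p under 0.05, and 14 had an unadjusted p under 0.05. Of all probe sets tested, 11.3% were called, 6.19% higher and 5.07% lower. One of the 10, the second Pfkp probe set, passed the filter only through the Sox2-positive arrays, and without it 9 of 20 were higher. The median difference of the 21 was 0.97 (log2), against -0.01 over all probe sets. When only the 4 sorted arrays were fitted, or when arrays were weighted by quality, 3 of the 21 were called, where 2.29% and 3.22% of all probe sets were. Leaving out Sox2-positive replicate b left 4 (4.63% of all), and leaving out any other sorted array left 6 (8.66% to 11.9%). By leading probe set, the one with the highest mean over all arrays, 4 of the 10 genes were higher: Pfkp, Aldoc, Pfkl and Aldoa.

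**Figure D1:**
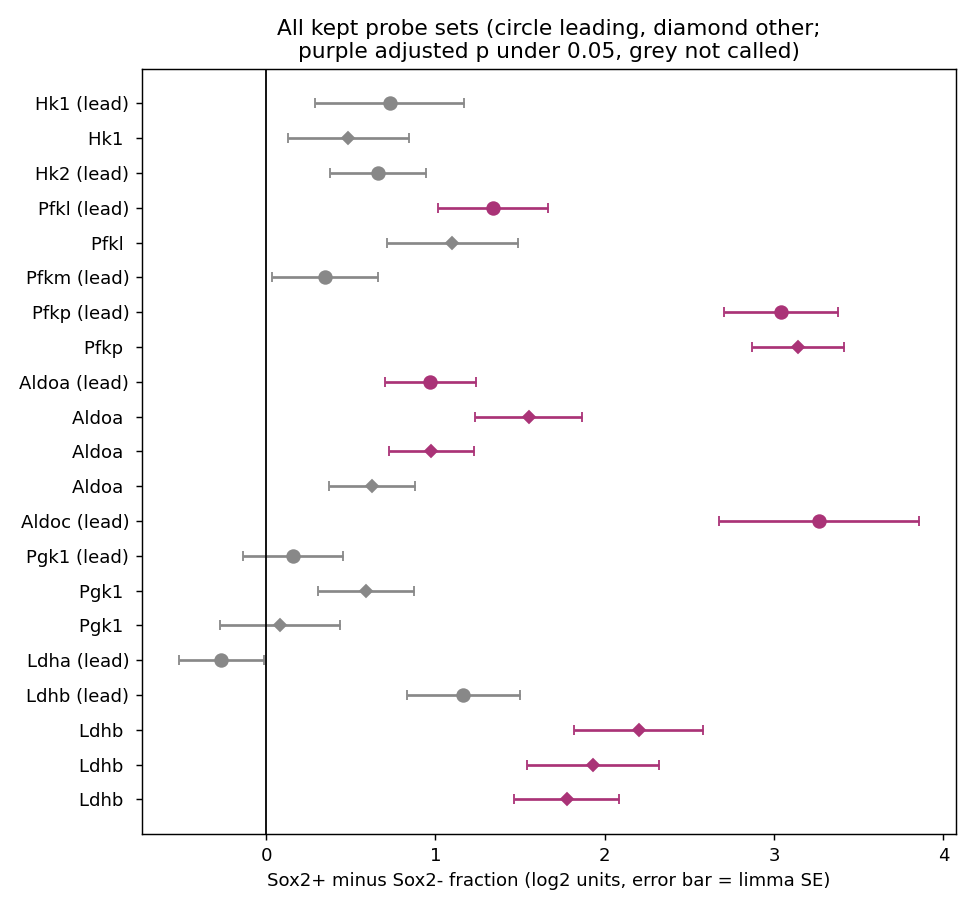
Difference between the Sox2-positive and the Sox2-negative fraction for each of the 21 member probe sets (x axis, log2 units, bars are the limma standard error, n = 2 against 2), in the order of the pathway, with leading probe sets as circles and others as diamonds. Purple marks the 10 probe sets with an adjusted p under 0.05, all to the right of 0, with Pfkp and Aldoc farthest.

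The pluripotent cell markers differed in the same direction as these genes, with 6 of 7 higher in the Sox2-positive fraction when Sox2, fixed by the sort, is left out. Of the fat cell markers, 3 of the 4 measured were lower there, with list means of 2.84 and 3.16 against 6.64 and 6.76. The 8 fibroblast markers were all below 4 in the Sox2-positive fraction, with list means of 2.35 and 2.46 against 3.04 and 3.27, and none of the 4 tested was called. The muscle markers, looked at because muscle is rich in Pfkm, were below 4 on both arrays for 7 of 8 genes in the Sox2-positive and 8 of 8 in the Sox2-negative fraction. Among 6 neural markers, looked at because brain is rich in Aldoc, 4 were below 4 on both Sox2-positive arrays and Map2 was lower in that fraction. Whether these differences in cell makeup play a part in the enzyme levels was not tested. In bulk samples such as these, fewer cells of a type and less RNA per cell cannot be told apart.

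Hexokinase showed no called change between the fractions for either isoform. Hk1, the broadly expressed hexokinase, read 9.69 and 8.45 in 2i iPSC, 7.85 and 7.72 in iPSC on MEFs, 8.80 and 9.08 in day 32 cells, 7.24 and 8.00 in the Sox2-positive and 7.23 and 6.55 in the Sox2-negative fraction. Its levels were highest in 2i iPSC and day 32 cells, which overlapped, then in iPSC on MEFs and the Sox2-positive fraction, which overlapped, and the Sox2-negative fraction was lowest, by a margin of 1 unit in the second decimal. The difference between the fractions was 0.73 ± 0.44 (log2, SE) with an adjusted p of 0.317. A second Hk1 probe set, 1420901_a_at, lay near the floor at 2.45 to 4.71 over the 10 arrays. It was below the floor in iPSC on MEFs and was called higher than there in the Sox2-positive (adjusted p = 0.00552) and the Sox2-negative fraction (adjusted p = 0.0133), the latter not without iPSC on MEFs replicate a or b (0.0629 or 0.0660). The leading probe set differed there by -0.17 and -0.90 (log2) and was not called.

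Hk2, the inducible hexokinase known from tumours and embryonic cells, read 10.98 and 10.99 in 2i iPSC, 10.95 and 10.53 in iPSC on MEFs, 10.04 and 10.62 in day 32 cells, 10.16 and 9.83 in the Sox2-positive and 9.35 and 9.32 in the Sox2-negative fraction. The Sox2-negative arrays were the lowest of the 10 and the 2i arrays the highest, while day 32 cells overlapped both iPSC on MEFs and the Sox2-positive fraction. Hk2 differed between the fractions by 0.66 ± 0.29 (log2, SE), which was not called (adjusted p = 0.170). Sox2-negative cells held 2.65-fold less Hk2 signal than iPSC on MEFs (adjusted p = 0.00426), a call lost with quantile normalization (adjusted p = 0.163).

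The hexokinase isoform ratio, taken as the log2 signal of Hk2 minus that of Hk1 on the same array, was not found to differ among the groups. A ratio of signals from different probes has no meaning by itself, and only its change between groups is described. The Hk2 to Hk1 ratio was 1.29 and 2.54 in 2i iPSC, 3.10 and 2.81 in iPSC on MEFs, 1.24 and 1.54 in day 32 cells, 2.92 and 1.83 in the Sox2-positive and 2.12 and 2.77 in the Sox2-negative fraction. An exact permutation test over all 945 ways of splitting the 10 arrays into 5 pairs gave p = 0.229 for a difference among the groups, the largest of the 6 ratios tested. The fractions differed by -0.07 ± 0.67 (log2, SE), a spread wide enough to hide a modest change of either sign.

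**Figure D2:**
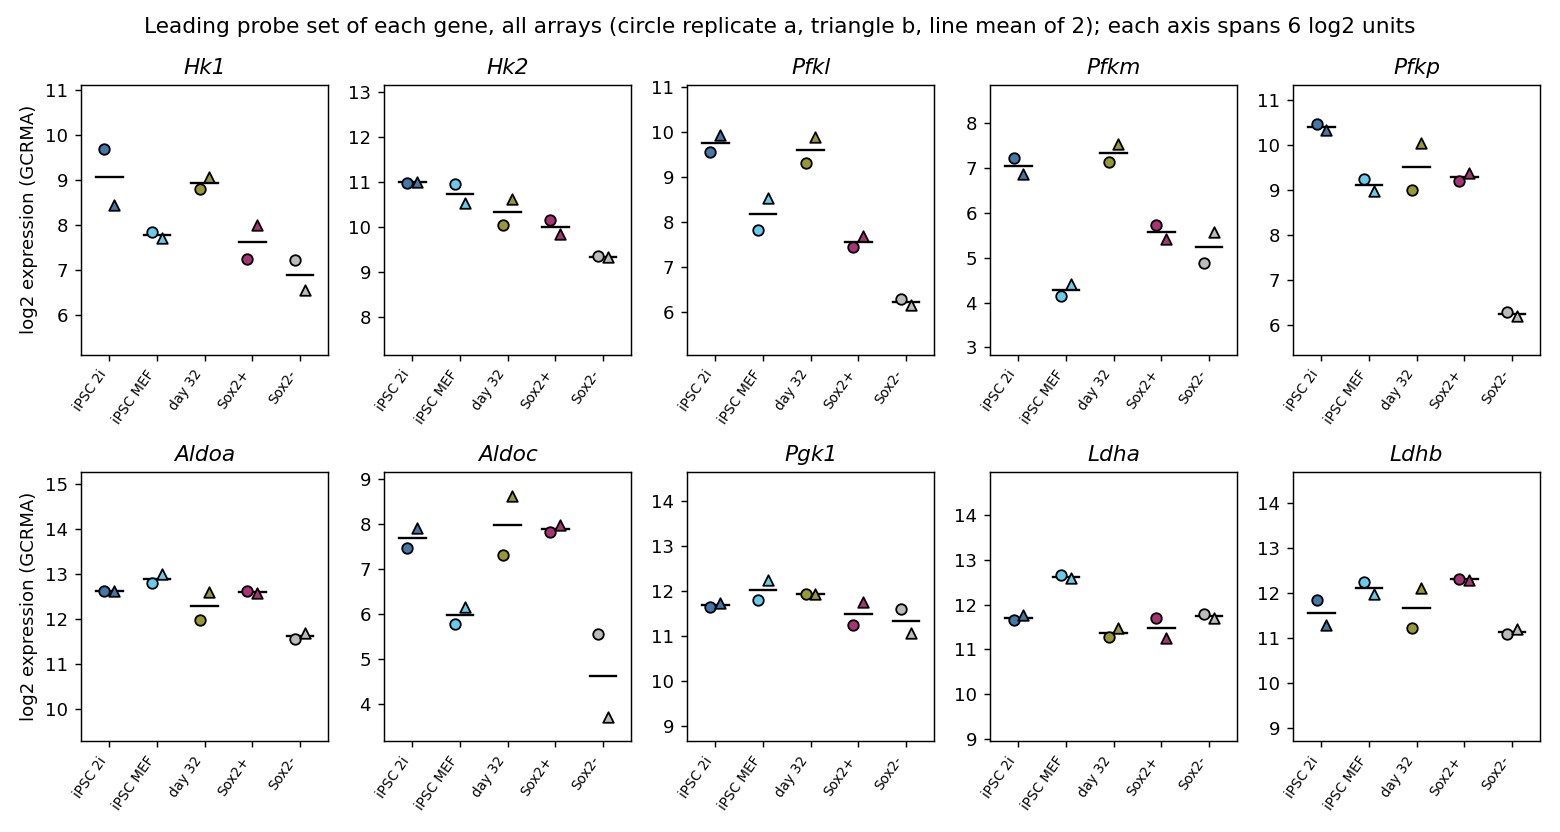
Log2 expression (y axis, GCRMA units) of the leading probe set of the 10 genes on each array, by group (x axis), with circles for replicate a, triangles for replicate b and lines for the mean of 2. Each panel spans the same number of log2 units around its own centre. Pfkp and Pfkl are lowest in the Sox2-negative fraction, and Pfkm is lowest in iPSC on MEFs.

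The phosphofructokinases differed from each other in their pattern over the groups. Pfkp, the platelet-type isoform, was the member with the lowest adjusted p among the leading probe sets between the fractions. It read 10.48 and 10.34 in 2i iPSC, 9.25 and 8.99 in iPSC on MEFs, 9.01 and 10.05 in day 32 cells, 9.21 and 9.38 in the Sox2-positive fraction, and 6.30 and 6.21 in the Sox2-negative fraction. The Sox2-negative arrays lay far below the other 8, while day 32 cells, the Sox2-positive fraction and iPSC on MEFs overlapped. Pfkp was 8.22-fold higher in Sox2-positive than in Sox2-negative cells, a log2 difference of 3.04 ± 0.34 (SE) with an adjusted p of 0.00129. The call held under every alternative that was run, with a difference of 2.96 to 3.13 when 1 of the 4 sorted arrays was left out. The Sox2-positive fraction did not differ detectably from iPSC on MEFs (0.17 ± 0.34, adjusted p = 0.717), and the Sox2-negative fraction was 7.29-fold below iPSC on MEFs (adjusted p = 0.000407).

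A second Pfkp probe set, 1430634_a_at, read 2.76 and 2.85, 3.08 and 3.06, 2.29 and 2.53, 5.39 and 5.69, and 2.68 and 2.12 in the same order of groups. It rose above the floor only in the Sox2-positive fraction, unlike the leading probe set, which was as high or higher in 2i iPSC. The probe sets of Pfkp therefore differ in their pattern over the iPSC groups, and this second one, since it passed the filter only through the group where it is high, is given as a description.

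Pfkl, the liver-type isoform, moved in the same direction with a smaller change. It read 9.55 and 9.93 in 2i iPSC, 7.81 and 8.52 in iPSC on MEFs, 9.30 and 9.88 in day 32 cells, 7.43 and 7.68 in the Sox2-positive and 6.28 and 6.15 in the Sox2-negative fraction. The groups of the high 18S class did not overlap one another, with iPSC on MEFs highest and Sox2-negative cells lowest. Pfkl was 2.53-fold higher in the Sox2-positive than in the Sox2-negative fraction (1.34 ± 0.33, log2 and SE, adjusted p = 0.0315), but the call was lost when any one of the 4 sorted arrays was left out, with adjusted p from 0.0520 to 0.124, and when those 4 were fitted alone (0.109). Its second probe set, 1450269_a_at, differed by 1.10 ± 0.39 and was not called (adjusted p = 0.0982). Against iPSC on MEFs, Pfkl was 3.86-fold lower in the Sox2-negative fraction (adjusted p = 0.00172) and not called in the Sox2-positive one (-0.61 ± 0.33, adjusted p = 0.178).

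Pfkm, the muscle-type isoform, had another pattern. It read 7.21 and 6.85 in 2i iPSC, 4.15 and 4.42 in iPSC on MEFs, 7.12 and 7.53 in day 32 cells, 5.73 and 5.41 in the Sox2-positive and 4.89 and 5.56 in the Sox2-negative fraction. The fractions overlapped, 2i iPSC and day 32 cells overlapped, and iPSC on MEFs were lowest, just above the floor. Between the fractions Pfkm differed by 0.35 ± 0.31 (log2, SE, adjusted p = 0.517). Against iPSC on MEFs it was higher in both, 2.44-fold in the Sox2-positive (adjusted p = 0.0143) and 1.92-fold in the Sox2-negative fraction (adjusted p = 0.0356). Those comparisons share the iPSC on MEFs arrays, and leaving out iPSC on MEFs replicate a or b gave adjusted p of 0.0953 or 0.0506 for the former and 0.168 or 0.0810 for the latter. The former call was also lost without Sox2-positive replicate a (0.0720) and the latter without Sox2-negative replicate b (0.179). The muscle markers were at or near the floor in all 3 of these groups.

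The choice among phosphofructokinase isoforms was read from ratios within an array, where a constant shift between arrays cancels. The Pfkp to Pfkl ratio was 0.93 and 0.41 in 2i iPSC, 1.44 and 0.47 in iPSC on MEFs, -0.29 and 0.17 in day 32 cells, 1.78 and 1.70 in the Sox2-positive and 0.02 and 0.06 in the Sox2-negative fraction. The Pfkp to Pfkm ratio was 3.27 and 3.49, 5.10 and 4.57, 1.89 and 2.52, 3.48 and 3.97, and 1.41 and 0.65 in the same order of groups. The Pfkm to Pfkl ratio was -2.34 and -3.08, -3.66 and -4.10, -2.18 and -2.35, -1.70 and -2.27, and -1.39 and -0.59. Relative to either other isoform, Pfkp was highest among the day 32 groups in the Sox2-positive fraction, and Pfkm relative to Pfkl was lowest in iPSC on MEFs and highest in Sox2-negative cells. Over the 5 groups the exact permutation test gave p = 0.00212 for Pfkp to Pfkm, p = 0.00529 for Pfkm to Pfkl and p = 0.0466 for Pfkp to Pfkl, which after Benjamini-Hochberg adjustment over the 6 ratios became 0.0127, 0.0159 and 0.0698. The smallest p this test can give is 0.00106. These splits run across the technical classes, whose 3' to 5' gap is no constant shift, and class and culture cannot be told apart in them. Within the high 18S class alone p was 0.0667 for each of the 3 ratios, the smallest that 6 arrays can give.

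Between the 2 fractions, the Pfkp to Pfkm ratio was 6.48-fold higher in Sox2-positive cells (2.69 ± 0.45, log2 and SE, adjusted p = 0.00115 by limma) and the Pfkp to Pfkl ratio 3.25-fold higher (1.70 ± 0.50, limma adjusted p = 0.00463). In that fit every probe set was taken relative to the reference isoform, so 9.14% of all probe sets were called relative to Pfkm and 67.1% relative to Pfkl, which itself had moved. Because the reference's error is shared by every feature of that fit, the 6 ratios were also added as features of their own to the table of log2 values, an alternative chosen after seeing the data. There the adjusted p was 0.00309 and 0.0183. With the second Pfkl probe set the Pfkp to Pfkl difference was 1.94. Pfkm to Pfkl differed by -0.99 ± 0.51 between the fractions, which was not called (limma adjusted p = 0.0754).

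Against iPSC on MEFs, the Pfkp to Pfkm ratio was 14.0-fold lower in the Sox2-negative fraction (limma adjusted p = 9.93e-06) and 2.16-fold lower in the Sox2-positive one (limma adjusted p = 0.0350, and 0.222 or 0.183 without iPSC on MEFs replicate a or Sox2-positive replicate a), while 61.4% and 71.4% of all probe sets were called relative to Pfkm. As a feature of its own, the Pfkp to Pfkm ratio had a limma adjusted p of 0.00021 in the Sox2-negative and 0.0429 in the Sox2-positive fraction. The sign of the Sox2-positive difference depended on the Pfkp probe set, at -1.11 (log2) with the leading one and 1.185 with the second. That second probe set was below the floor in iPSC on MEFs. In the Sox2-negative fraction the differences were -3.805 and -1.61. The Pfkm to Pfkl ratio was 7.41-fold higher in Sox2-negative cells (limma adjusted p = 3.2e-06, and 0.000603 as a feature of its own), with 69.3% called relative to Pfkl. It was 3.72-fold higher in Sox2-positive cells (adjusted p = 0.00728 by limma, and 0.00627 as a feature of its own), with 15.5% called. The latter call was lost without iPSC on MEFs replicate b (0.0921) and without Sox2-positive replicate a (0.148). The calls of the Sox2-negative fraction held whichever array was left out. With the second Pfkl probe set the Pfkm to Pfkl differences were smaller. They were 1.94 in place of 2.89 (log2) in the Sox2-negative and 1.185 in place of 1.895 in the Sox2-positive fraction.

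**Figure D3:**
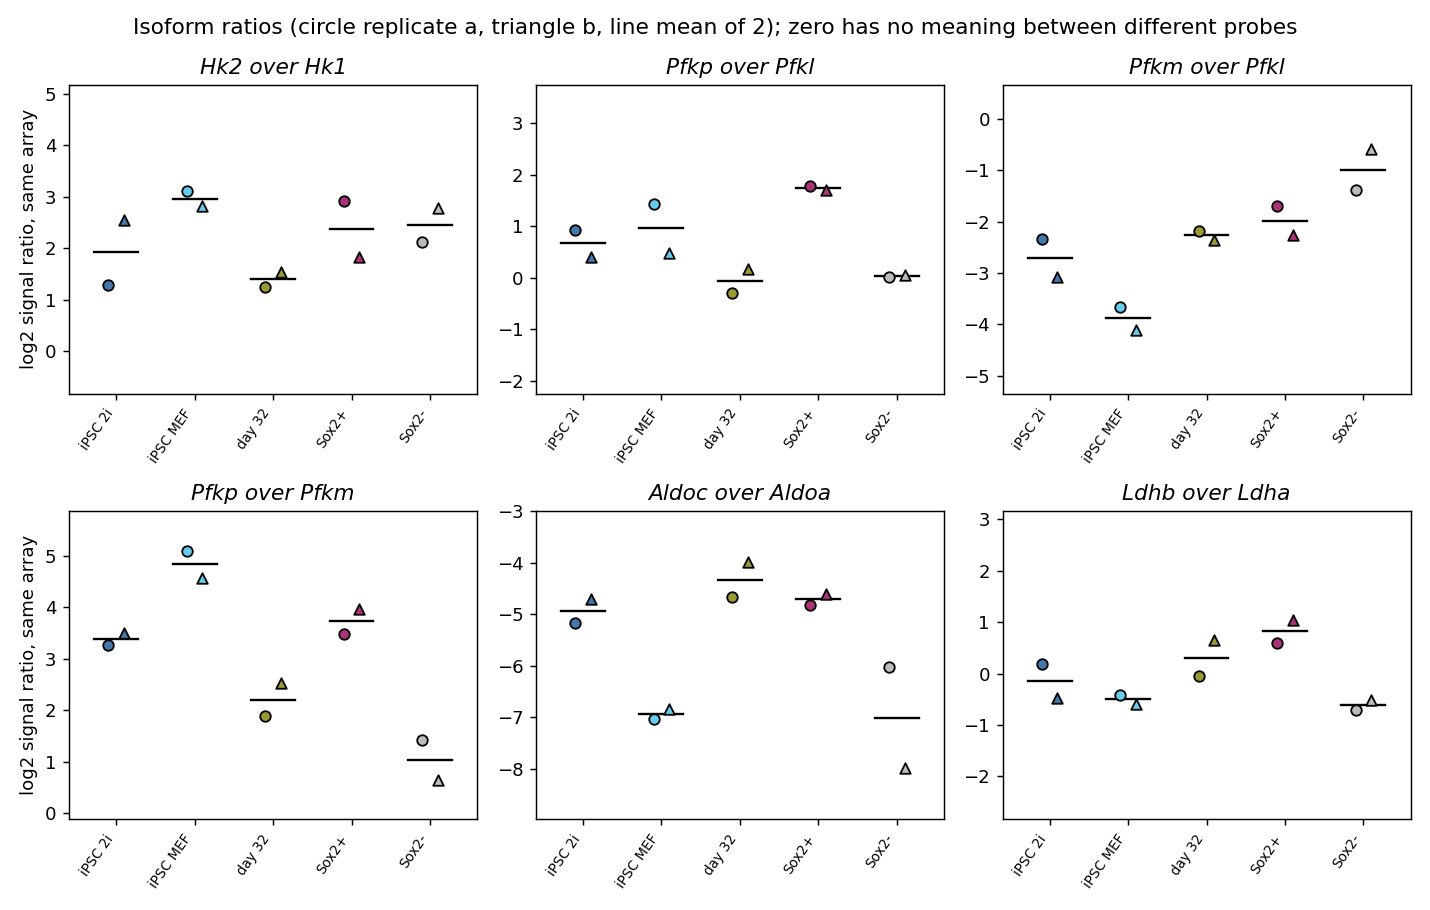
Log2 ratio of the leading probe sets of paired isoforms on each array (y axis), by group (x axis), with circles for replicate a, triangles for replicate b and lines for the mean of 2. Pfkp over Pfkm runs from 0.65 in a Sox2-negative array to 5.10 in an array of iPSC on MEFs, and the Hk2 over Hk1 arrays of the Sox2-positive fraction overlap those of 2i iPSC, iPSC on MEFs and the Sox2-negative fraction.

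The proximal promoters of Pfkp and Pfkl, whose ratio was called between the fractions, are shown because the member genes are textbook targets of HIF-1 and, for Ldha, of Myc. Capitals mark ACGTG or GCGTG, the core that HIF factors bind, on either strand, and CACGTG, the E-box that Myc and Max bind, which holds an ACGTG on each strand. Each sequence is from RefSeq on GRCm38.p6, from 250 bases before to 50 bases after a gene's start, read along the gene.
Pfkp chr13:6648722-6649021, minus strand: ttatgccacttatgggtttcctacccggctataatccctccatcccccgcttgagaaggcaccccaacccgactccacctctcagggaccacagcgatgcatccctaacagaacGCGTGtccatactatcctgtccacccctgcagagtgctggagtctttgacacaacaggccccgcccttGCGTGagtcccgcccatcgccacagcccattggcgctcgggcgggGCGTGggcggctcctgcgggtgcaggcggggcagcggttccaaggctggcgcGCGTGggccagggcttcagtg
Pfkl chr10:78009758-78010057, minus strand: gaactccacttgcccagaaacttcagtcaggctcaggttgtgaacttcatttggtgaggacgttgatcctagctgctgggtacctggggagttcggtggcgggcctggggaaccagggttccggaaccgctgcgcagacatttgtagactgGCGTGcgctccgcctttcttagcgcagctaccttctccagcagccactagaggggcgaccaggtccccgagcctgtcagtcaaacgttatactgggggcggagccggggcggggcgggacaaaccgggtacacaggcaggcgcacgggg
The Pfkp window holds 4 copies of GCGTG and the Pfkl window 1, and neither holds ACGTG or CACGTG. Over the 10 genes, 15 of 18 windows hold ACGTG or GCGTG, as do 43.8% of all 32851 windows of that length in the table. Some windows of Aldoa overlap, as do some of Pfkm, so a site can be counted more than once. All of the phosphofructokinases, Pfkp, Pfkl and Pfkm, carry the core, and a match describes letters, not a bound site. The Pfkm windows, which are not shown, also hold ACGTG and CACGTG. Between the fractions, 6.19% of all probe sets were higher in Sox2-positive cells and 5.07% lower. Of the list of hypoxia and HIF target genes outside glycolysis, 2 of 14 were higher in the Sox2-positive than in the Sox2-negative fraction and 0 were lower. They were Epas1, which encodes HIF-2 alpha (6.73-fold, adjusted p = 0.00215), and Bnip3, a mitophagy receptor (3.51-fold, adjusted p = 0.0483). The median difference of the list was 0.69 (log2).

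The aldolases parted as well. Aldoc, known as the brain isoform, read 7.47 and 7.91 in 2i iPSC, 5.77 and 6.16 in iPSC on MEFs, 7.31 and 8.62 in day 32 cells, 7.81 and 7.97 in the Sox2-positive and 5.55 and 3.70 in the Sox2-negative fraction. The Sox2-positive, day 32 and 2i arrays overlapped at the top, iPSC on MEFs lay below them, and the Sox2-negative arrays were lowest and farthest apart from each other. Aldoc was 9.61-fold higher in Sox2-positive than in Sox2-negative cells (3.26 ± 0.59, log2 and SE, adjusted p = 0.0103). Leaving out Sox2-positive replicate b ended the call (adjusted p = 0.0541), as did fitting the 4 sorted arrays alone (0.0696), and the difference ran from 2.34 to 4.19 as single sorted arrays were left out. Aldoc was also 3.80-fold higher in the Sox2-positive fraction than in iPSC on MEFs (adjusted p = 0.0335), a call that any single array of these 4 ended when left out (0.0949 to 0.164). It was not called in the Sox2-negative fraction against iPSC on MEFs (-1.34 ± 0.59, adjusted p = 0.0907).

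Aldoa, the abundant aldolase of muscle and most other cells, moved less. Its leading probe set read 12.64 and 12.62 in 2i iPSC, 12.81 and 13.00 in iPSC on MEFs, 11.98 and 12.60 in day 32 cells, 12.62 and 12.58 in the Sox2-positive and 11.57 and 11.69 in the Sox2-negative fraction. The Sox2-negative arrays were the lowest, iPSC on MEFs were the highest, and the Sox2-positive fraction met 2i iPSC and day 32 cells at the edge of their ranges. Aldoa was 1.96-fold higher in Sox2-positive than in Sox2-negative cells (0.97 ± 0.27, log2 and SE, adjusted p = 0.0484), and leaving out any one sorted array ended the call, with adjusted p from 0.0856 to 0.129. Its other probe sets differed by 1.55 (adjusted p = 0.0168), 0.98 (adjusted p = 0.0382) and 0.63 (adjusted p = 0.143), so 3 of 4 were called. The first of these calls, 1433604_x_at, was lost without either Sox2-positive array (0.0505 and 0.0510) or Sox2-negative replicate b (0.0587), and the second, 1416921_x_at, when any one sorted array was left out (0.0727 to 0.107). All 4 are of the kind whose name ends in x_at, which may also bind near-identical transcripts, so signal from related copies cannot be set apart. Against iPSC on MEFs the leading probe set was 2.42-fold lower in the Sox2-negative fraction (adjusted p = 0.00492, and 0.0878 with quantile normalization). Of the 4, 1439375_x_at was lower in the Sox2-positive one (1.68-fold, adjusted p = 0.0480), and any array of these groups left out ended that call (0.0965 to 0.209).

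The Aldoc to Aldoa ratio was -5.17 and -4.71 in 2i iPSC, -7.04 and -6.84 in iPSC on MEFs, -4.67 and -3.98 in day 32 cells, -4.81 and -4.61 in the Sox2-positive and -6.02 and -7.99 in the Sox2-negative fraction. Arrays of iPSC on MEFs and Sox2-negative cells had lower ratios than those of the other 3 groups, with no overlap. Over the groups the exact permutation test gave p = 0.0381, and 0.0698 after adjustment over the 6 ratios. Sox2-positive cells had a ratio 4.91-fold above Sox2-negative cells (2.29 ± 0.53, log2 and SE, limma adjusted p = 0.00778, with 53.1% of probe sets called relative to Aldoa, and adjusted p = 0.0295 with the ratio as a feature of its own). They were 4.69-fold above iPSC on MEFs (limma adjusted p = 0.0162, with 18.5% called relative to Aldoa), a call lost without iPSC on MEFs replicate a or b (0.121 or 0.0775) or Sox2-positive replicate a (0.0523). When the 4 sorted arrays were fitted alone, the former adjusted p was 0.0505. The difference between the fractions was 1.31 without Sox2-negative replicate b, where Aldoc was below the floor, and 3.28 without Sox2-negative replicate a. Over the 4 Aldoa probe sets the former difference was 1.72 to 2.64 and the latter 2.12 to 2.67.

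Pgk1, an X-linked enzyme often used as a reference gene, was among the members that did not differ detectably between the fractions. Its leading probe set read 11.64 and 11.72 in 2i iPSC, 11.80 and 12.23 in iPSC on MEFs, 11.93 and 11.94 in day 32 cells, 11.24 and 11.75 in the Sox2-positive and 11.60 and 11.07 in the Sox2-negative fraction. The fractions overlapped and differed by 0.16 ± 0.30 (log2, SE, adjusted p = 0.776). The other 2 probe sets differed by 0.59 (adjusted p = 0.212) and 0.08 (adjusted p = 0.915). Both of those, but not the leading one (adjusted p = 0.0885), were lower in the Sox2-negative fraction than in iPSC on MEFs, 2.49-fold (adjusted p = 0.00552) and 2.01-fold (adjusted p = 0.0441), and both calls were lost with quantile normalization (0.207 and 0.690). The second was also lost without iPSC on MEFs replicate b (0.269) or Sox2-negative replicate b (0.211).

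The lactate dehydrogenase subunits had different patterns. Ldha, the M subunit that favours making lactate, read 11.66 and 11.76 in 2i iPSC, 12.65 and 12.58 in iPSC on MEFs, 11.27 and 11.47 in day 32 cells, 11.71 and 11.26 in the Sox2-positive and 11.80 and 11.70 in the Sox2-negative fraction. Ldha was highest in iPSC on MEFs, above all 8 other arrays, and the other 8 arrays lay between 11.26 and 11.80. Among those, the Sox2-positive arrays overlapped 2i iPSC, day 32 and Sox2-negative cells, while day 32 cells lay below 2i iPSC and Sox2-negative cells. Ldha differed between the fractions by -0.27 ± 0.25 (log2, SE, adjusted p = 0.536). Against iPSC on MEFs it was lower in both, 2.19-fold in the Sox2-positive (adjusted p = 0.00984) and 1.82-fold in the Sox2-negative fraction (adjusted p = 0.0204). Relative to the shift of the median of all probe sets in these comparisons, -0.34 and -0.38, the differences were -0.79 and -0.49. Without iPSC on MEFs replicate a, neither call held (0.0653 and 0.0928), the second was also lost without iPSC on MEFs replicate b (0.0727) or Sox2-negative replicate b (0.0622), and quantile normalization ended both (0.230 and 0.561).

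Ldhb, the H subunit known from heart, had 4 probe sets. The leading one read 11.84 and 11.29 in 2i iPSC, 12.24 and 11.99 in iPSC on MEFs, 11.22 and 12.12 in day 32 cells, 12.31 and 12.30 in the Sox2-positive and 11.09 and 11.19 in the Sox2-negative fraction. The Sox2-positive arrays were the highest and the Sox2-negative the lowest of the 10. Between the fractions it differed by 1.17 ± 0.34 (log2, SE), just past the threshold on the side not called (adjusted p = 0.0553, and 0.0498 with median centring). The other 3 were higher in the Sox2-positive fraction: 1416183_a_at was 4.59-fold higher (adjusted p = 0.00864), 1448237_x_at 3.81-fold (adjusted p = 0.0165) and 1455235_x_at 3.42-fold (adjusted p = 0.00915). The call of 1448237_x_at rested on Sox2-positive replicate b (0.0551 without it) and on Sox2-negative replicate a (0.0657 without it), and all 3 were lost with array weights (0.0532, 0.0715 and 0.0550).

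The probe sets of Ldhb shared the low level of Sox2-negative cells but differed in the iPSC groups. On 1455235_x_at iPSC on MEFs read 9.73 and 9.65, below the 10.34 and 10.38 of the Sox2-positive fraction, while on 1448237_x_at they read 11.59 and 11.44 beside 11.61 and 11.37. All 4 probe sets were lower in the Sox2-negative fraction than in iPSC on MEFs, by 1.97-fold for the leading one (adjusted p = 0.0399) to 3.88-fold for 1448237_x_at (adjusted p = 0.00382). The leading probe set and 1455235_x_at lost this call when any array of these groups was left out (0.0845 to 0.176 and 0.0518 to 0.0877), and with quantile normalization it was lost for the leading one, 1448237_x_at and 1455235_x_at (0.698, 0.0782 and 0.481). None of the 4 was called between the Sox2-positive fraction and iPSC on MEFs.

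**Figure D4:**
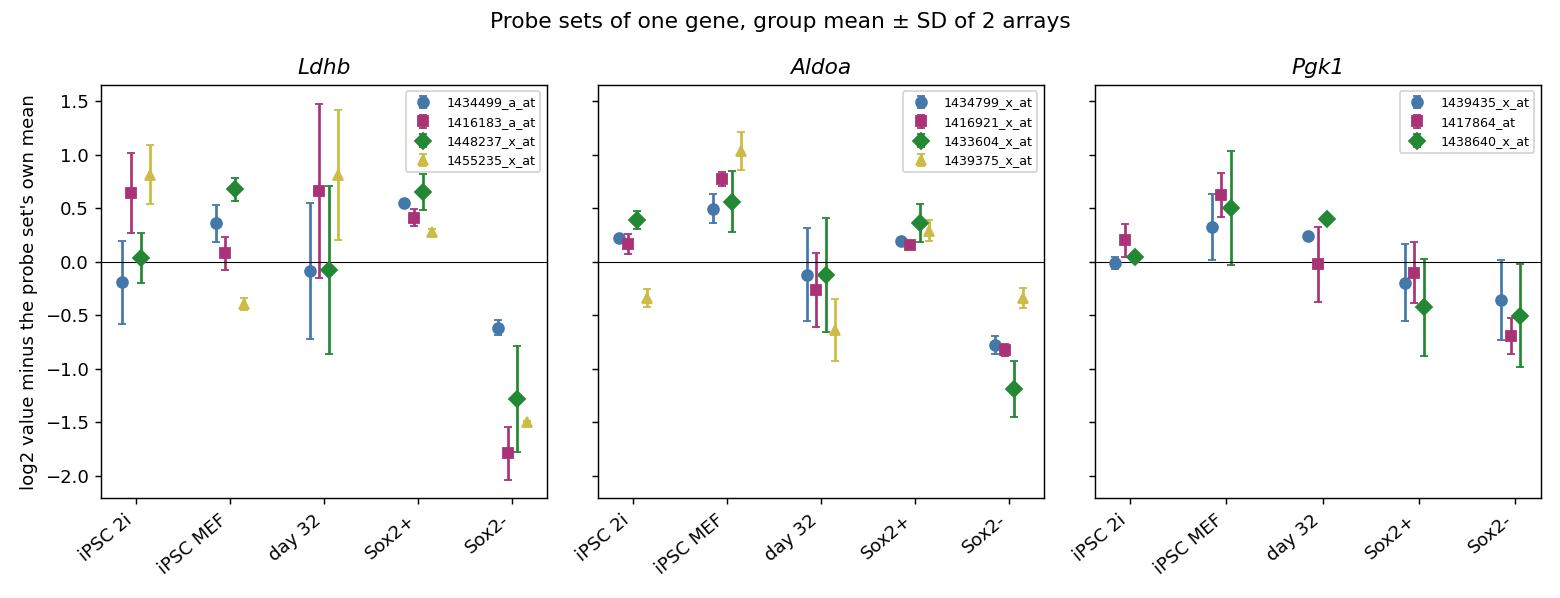
Group means of each kept probe set of Ldhb, Aldoa and Pgk1 (y axis, log2 value minus that probe set's own mean over the groups, bars are the SD of 2 arrays), by group (x axis). All 4 Ldhb probe sets are lowest in the Sox2-negative fraction, while 1439375_x_at of Aldoa and 1455235_x_at of Ldhb part from the rest in 2i iPSC and iPSC on MEFs.

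The Ldhb to Ldha ratio was 0.18 and -0.47 in 2i iPSC, -0.41 and -0.59 in iPSC on MEFs, -0.05 and 0.65 in day 32 cells, 0.60 and 1.04 in the Sox2-positive and -0.71 and -0.51 in the Sox2-negative fraction. Sox2-positive cells were above Sox2-negative cells and iPSC on MEFs with no overlap, and they overlapped day 32 cells. Over the 5 groups the exact permutation test gave p = 0.0603, and 0.0724 after adjustment over the 6 ratios. Between the fractions the ratio was 2.69-fold higher in Sox2-positive cells (1.43 ± 0.36, log2 and SE, limma adjusted p = 0.0292, with 11.3% called relative to Ldha). Left-out single arrays took the adjusted p from 0.0264 to 0.133 and ended the call in 3 of 4 cases, those of Sox2-positive replicate b and of either Sox2-negative array. Over the 4 Ldhb probe sets the difference was 1.43 to 2.46. The ratio was 2.50-fold higher in Sox2-positive cells than in iPSC on MEFs (limma adjusted p = 0.0148, with 41.7% called relative to Ldha), and lost the call without iPSC on MEFs replicate a or b (0.0668 or 0.0858) or Sox2-positive replicate b (0.0725).

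The lactate dehydrogenase promoters are shown for the contrast in the letters marked.
Ldha chr7:46845554-46845853, plus strand, the first of its 2 starts: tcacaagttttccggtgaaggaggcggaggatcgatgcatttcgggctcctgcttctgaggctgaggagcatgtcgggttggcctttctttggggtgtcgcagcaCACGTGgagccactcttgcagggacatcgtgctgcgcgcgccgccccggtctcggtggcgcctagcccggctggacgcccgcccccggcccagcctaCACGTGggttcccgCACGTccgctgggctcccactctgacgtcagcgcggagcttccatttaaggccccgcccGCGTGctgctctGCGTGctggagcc
Ldhb chr6:142507908-142508207, minus strand: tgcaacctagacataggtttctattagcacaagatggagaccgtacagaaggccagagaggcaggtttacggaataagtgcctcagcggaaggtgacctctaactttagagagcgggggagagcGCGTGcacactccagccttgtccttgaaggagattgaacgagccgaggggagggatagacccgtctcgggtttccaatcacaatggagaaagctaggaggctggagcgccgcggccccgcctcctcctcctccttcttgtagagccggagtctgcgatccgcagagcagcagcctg
The Ldha window holds 2 copies of CACGTG, which 7.15% of all windows hold, 1 further ACGTG on the other strand and 2 copies of GCGTG. The Ldhb window holds a single GCGTG. Among the 10 genes, CACGTG was found in 2 of the 18 windows, those of Ldha and Pfkm.

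Set against iPSC on MEFs as a whole, the share of members called in the Sox2-positive fraction was near that of all probe sets. In the Sox2-negative fraction most members were called lower on the deposited scale, but not with quantile normalization. In the Sox2-positive fraction 6 of 21 member probe sets were called, 4 higher and 2 lower, where 32.8% of all probe sets were called, 7.38% higher and 25.4% lower. Without the second Pfkp probe set, which passed the filter only through the Sox2-positive arrays, it was 5 of 20, 3 of them higher. Leaving out iPSC on MEFs replicate a left 2 of 21, and leaving out iPSC on MEFs replicate b, Sox2-positive replicate a or Sox2-positive replicate b left 3, 3 and 4. In the Sox2-negative fraction 16 of 21 were called, 2 higher and 14 lower, where 45.0% of all were called, 13.4% higher and 31.6% lower. That count was 10 without iPSC on MEFs replicate b. The near-floor second Hk1 probe set is 1 of the higher calls in each fraction. The members' median difference was -0.17 (log2) in the former and -1.27 in the latter, beside -0.34 and -0.38 over all probe sets. With quantile normalization the splits became 5 higher and 0 lower in the former, where 9.02% of all were higher and 10.3% lower. In the latter they became 2 higher and 4 lower, and those 6 of 21 were under the 35.3% of all probe sets called. These comparisons share the iPSC on MEFs arrays, whose culture held fibroblasts and whose actin gap differed from that of the fractions. The mean of the 8 fibroblast markers was 3.71 and 3.85 there, with 3 of 8 below 4 on both arrays, against the list means given above for the fractions and 3.47 and 3.84 in 2i iPSC. Of the 4 markers tested, 2 were lower in each fraction than in iPSC on MEFs and 0 were higher, and Pdgfrb differed by 1.56 (adjusted p = 0.117) in the Sox2-negative one. The part of such cells in the enzyme differences was not tested.

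Unsorted day 32 cells were compared with 2i iPSC, which are of the same technical class. By limma 0 of the 21 member probe sets were called, 3 had an unadjusted p under 0.05, and 6.31% of all probe sets were called. Pfkp was 0.88 ± 0.34 lower on the log2 scale (-0.88, adjusted p = 0.154), and the day 32 arrays were 1.04 apart for this gene. Without day 32 replicate b, Pfkp was called (adjusted p = 0.0368). Fat cell markers were high in day 32 cells, with list means of 6.68 and 7.10, beside 2.85 and 3.55 in 2i iPSC.

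Tests of probe sets across the technical classes are given as counts, and the orders of levels across them above are descriptions. Of the 21 member probe sets, 10 were called between 2i iPSC and iPSC on MEFs, 8 higher and 2 lower, where 61.6% of all probe sets were called, 50.4% higher and 11.2% lower. The balance turned with the scaling, to 2 higher and 12 lower with median centring (17.4% and 30.1% of all) and 2 higher and 3 lower with quantile normalization (21.0% and 19.3%). The count was 4 without 2i iPSC replicate a and 6 without either array of iPSC on MEFs. In the Sox2-positive fraction against unsorted day 32 cells 7 were called, 3 higher and 4 lower, where 71.6% of all were called, 10.3% higher and 61.2% lower. There too the balance turned, to 15 higher and 0 lower with median centring (28.7% and 21.4% of all) and 9 higher and 0 lower with quantile normalization (22.9% and 28.3%). In the Sox2-negative fraction against day 32 cells 14 were called, 1 higher and 13 lower, where 72.3% of all were called, 10.4% higher and 61.9% lower. With median centring these became 5 higher and 6 lower (28.2% and 21.9% of all), with quantile normalization 3 higher and 6 lower (22.7% and 28.7%), and without day 32 replicate b the count was 9. The medians of all probe sets were shifted by 0.93, -1.26 and -1.27 (log2) in these 3 comparisons, and the technical class cannot be told apart from the group here.

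Other genes of the pathway were read from lists. Between the fractions, 6.19% of all probe sets were higher in Sox2-positive cells and 5.07% lower. Of 8 tested glycolytic enzymes outside the 10, 2 were higher in the Sox2-positive than in the Sox2-negative fraction and 0 were lower, with a median of 0.50 (log2). They were Pfkfb2, which makes the fructose 2,6-bisphosphate that activates phosphofructokinase, and Eno2, the neuronal enolase. Pfkfb2 read 6.36 and 6.20 in the Sox2-positive and 3.69 and 4.46 in the Sox2-negative fraction (4.61-fold, adjusted p = 0.00992), and Eno2 read 5.67 and 5.76 against 4.21 and 3.33 (3.85-fold, adjusted p = 0.0296). The abundant enzymes Tpi1, Pgam1 and Pkm were not called, with differences of -0.09, 0.08 and 0.39. Of 15 genes of glucose and lactate transport, the pentose phosphate branch and pyruvate use, 1 was higher and 0 were lower, with a median of 0.41: Taldo1, the transaldolase of the pentose phosphate branch (2.55-fold, adjusted p = 0.0176). A count of 1 in 15 is near the share of all probe sets called higher.

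In the Sox2-negative fraction against iPSC on MEFs, 4 of the 8 other glycolytic enzymes and 9 of the 15 transport and pyruvate genes were lower and 0 were higher, where 31.6% of all probe sets were lower and 13.4% higher. Among them Pgam1 differed by -1.16 (log2, adjusted p = 0.00657), Pkm by -0.92 (adjusted p = 0.0278) and the glucose transporter Slc2a1 by -1.44 (adjusted p = 0.00433). Taldo1 differed by -2.63 (adjusted p = 0.00028). The Sox2-positive fraction shared part of this against iPSC on MEFs. There 7 of the 15 were lower and 0 higher, and of the 8 enzymes 2 were lower and 1 higher. Of all probe sets, 25.4% were lower and 7.38% higher in that comparison. Pgam1 differed there by -1.08 (limma adjusted p = 0.0136) and Taldo1 by -1.285 (limma adjusted p = 0.00886), while Pkm and Slc2a1 were not called.

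The genes whose leading probe set followed each member most closely were found by Pearson correlation over the 10 arrays, which share groups and technical class. Pfkp was followed by Morc1, Jade1 and Esrrb, each with r = 0.99. Pfkm was followed by Mrpl23, Ccdc107 and Fxyd6 (r = 0.99), and Pfkl by Bspry, Phf1 and Ambra1 (r = 0.99). Hk1 was nearest to Srpk2, Uckl1 and Ficd, Hk2 to Slc66a1, Senp3 and Kdm1a, Aldoa to Klf5, Nid2 and Fblim1, and Aldoc to Igfbp2, Pnkd and Cd68. Pgk1 was nearest to Poldip3, Pisd-ps3 and Rpl14, Ldha to Ddx18, Clta and Ctdp1, and Ldhb to Sorl1, Tmem30b and Rnf144a, whose r of 0.91 to 0.92 were the lowest among the members. No gene named here was shared between isoforms of a family. Lists this short, drawn from all genes, would seldom share a gene, so no conclusion about the isoforms is drawn from them. Between isoforms themselves, r was 0.67 for Hk1 and Hk2, 0.52 for Aldoa and Aldoc and 0.22 for Ldha and Ldhb. Among the phosphofructokinases it was 0.87 for Pfkl and Pfkp, 0.69 for Pfkl and Pfkm and 0.48 for Pfkm and Pfkp.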

How the data were processed

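RNA was extracted with Trizol and amplified with 1 of 2 NuGEN Ovation kits, per the labels' protocols, which do not say which kit served which sample. The deposited table holds log2 expression values that the authors made with GCRMA in the affy package, per the submitters' processing notes, for 22690 probe sets on 10 arrays. Neither versions nor whether the arrays were normalized jointly is given in the sources used here.

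Control probe sets (64) and those with several symbols (691) or none (1555) were left out, including 1 that names Hk1 beside another gene. Probe sets whose value passed 4 (log2) on 2 or more arrays were kept, 14012 of 20380. They stand for 8599 genes. limma 3.58.1 in R 4.3.3 fitted the 5 group means with 1 shared spread (5 residual degrees of freedom), and p-values were adjusted by Benjamini-Hochberg over all kept probe sets. Isoform ratios were log2 differences of leading probe sets on 1 array. They were tested by exact permutation over groups, which has no direction, and by limma between groups. With 2 arrays against 2, such a permutation of a single value cannot give a p below 0.33. Python 3.11.15 and matplotlib 3.10.9 were used for the rest. The number of arrays limits the precision.

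Every member is named, led by its probe set with the highest mean. For each member the 3 genes with the highest correlation are named, and of other lists any measured gene, called ones first. Members, lists, markers and tests were chosen with earlier results of these data known. The limma step was tested on simulated data for the comparison of fractions over 14012 probe sets: it called 5 of 67 changes of 1 log2 unit, 55 of 67 of 2 units and 65 of 66 of 4 units, with 4 false calls. Replicate letters were not treated as pairing samples: the correlation of deviations was -0.07 to 0.31 over 10 pairs of groups, and over 0.1 in 2. Those were day 32 cells with the Sox2-positive (0.31) and with the Sox2-negative fraction (0.20). Whether the letters pair the day 32 samples is therefore not settled. Gene symbols were those of the platform annotation, of which 20351 were found in the RefSeq table and 0 changed. Alternatives were quantile normalization, median centring, no filter, a filter above 5, 1 probe set a gene, array weights, the compared arrays alone, a replicate block, the high 18S class alone, the mean of kept probe sets, and each array left out.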

Additional observations from a re-analysis of the deposited data

How the results depend on the processing

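Between the fractions, the uncalled Hk2 to Hk1 ratio of -0.07 became 0.17 with the second Hk1 probe set and 0.0525 with the mean of both, and no other sign of a gene or ratio turned under the alternatives that kept all arrays. With 1 sorted array left out, the uncalled Pgk1 difference ran from -0.10 to 0.42 and the Hk2 to Hk1 ratio from -0.61 to 0.47. The count of 10 member probe sets higher there became 3 with array weights, 3 with the compared arrays alone, 4 of 10 with 1 probe set a gene, and 4 to 6 with 1 sorted array left out. With a replicate block it was 10, and over all probe sets 1747 against 1578 were called. Under that block the Aldoc to Aldoa permutation p became 0.0583 and no other permutation call changed. With 1 probe set a gene, which tests 10 in place of 21, the counts were 3 and 7 for the Sox2-positive and Sox2-negative fraction against iPSC on MEFs, 6 for 2i iPSC against iPSC on MEFs, and 3 and 7 for the fractions against day 32 cells. Quantile normalization gave 6 for Sox2-negative cells against iPSC on MEFs, 5 for 2i iPSC against iPSC on MEFs and 9 for Sox2-negative against day 32 cells, and median centring gave 15 for Sox2-positive against day 32 cells, with the directions given above. The cause was not tested. With 1 array of the groups compared left out, the counts were 2 to 4 and 10 to 17 for the fractions against iPSC on MEFs, 0 to 1 for day 32 against 2i iPSC, 4 to 9 for 2i iPSC against iPSC on MEFs, and 6 to 8 and 9 to 15 for the fractions against day 32 cells. Permutation p over the groups became 0.0540 (Pfkp to Pfkl) and 0.0635 (Aldoc to Aldoa) with quantile normalization, and 0.0180 for Ldhb to Ldha with the mean of kept probe sets. In the high 18S class alone, where 0.0667 is the smallest possible, it was 0.0667 for the 3 phosphofructokinase ratios and 0.200 for Aldoc to Aldoa. With 1 array left out it was 0.124 to 0.457 (Hk2 to Hk1), 0.0148 to 0.123 (Pfkp to Pfkl), 0.00529 to 0.0307 (Pfkm to Pfkl), 0.00106 to 0.00529 (Pfkp to Pfkm), 0.00635 to 0.117 (Aldoc to Aldoa) and 0.0487 to 0.178 (Ldhb to Ldha). Against iPSC on MEFs, quantile normalization turned the uncalled Sox2-positive differences of Hk2, Aldoa, Hk1 and Pgk1 to 0.0555, 0.291, 0.388 and 0.192 and that of Sox2-negative Pgk1 to 0.0862. Median centring turned Sox2-positive Hk1 to 0.11, and it ran from -0.54 to 0.21 with 1 array left out. Of 84 single differences not printed above, 15 changed sign under 1 or both scalings. The 12 printed ratio differences between groups kept their side of the threshold with the ratio as a feature of its own. Members not called may still differ, since each group had 2 arrays.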
